A study of Mus musculus with 10 samples.

Results

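Deptor, Pdcd4, Trp53inp1, Adcy6, Plcd3, Sh3bp5, Pgam2, Abhd15, Dirc2 and Dhx40 are 10 mouse genes with a shared pattern. Each had a higher transcript level in 3 of 5 leukaemias grown in Rag2-/-γc-/- recipients than in any other library of the series. They were picked by symbol for that pattern from the 38215 genes listed, and all 10 were among the 13966 genes with enough counts to be tested. Because their levels chose them, those levels are given here as a description, and no test of them is offered as support.

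The cells came from acute myeloid leukaemias made by transducing lineage-depleted bone marrow with AML1-ETO and Nras carrying G12D, both delivered by the MSCV-IRES-GFP retrovirus. All primary leukaemias arose in Rag2-/-γc-/- hosts, which have no T, B or NK cells, and GFP+ spleen cells were then moved into secondary recipients. Secondary recipients were Rag2-/-γc-/- mice (libraries 7, 8, 9, 10 and 11) or immunocompetent C57BL/6J mice (libraries 1, 3, 4, 5 and 6). Messenger RNA of GFP+ splenocytes from each secondary recipient was sequenced as single 75-base reads, to ask how an intact immune system changes the leukaemia's transcripts. The strain names therefore describe the host, and the oncogenes and the GFP mark are shared by both groups. The sources used here do not give the recipients' age or the number of primary leukaemias behind these 10 libraries, so recipients may share a leukaemic source and p-values measure the spread between recipients.

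Total expected counts ran from 28157745 to 62461126 in the Rag2-/-γc-/- libraries and from 32703932 to 44097690 in the C57BL/6J libraries. Rag2-/-γc-/- libraries 7, 8 and 9 stood apart from the other 7 in more than the 10 genes. Nras was at 956, 787 and 745 CPM (expected counts divided by the scaled library size) in those 3, against 348 and 370 CPM in Rag2-/-γc-/- libraries 10 and 11 and 301 to 374 CPM in C57BL/6J libraries. In bulk RNA, fewer cells carrying a transcript and less transcript per cell cannot be told apart. Of all tested genes, 16.5% were higher in libraries 7, 8 and 9 than in any of the other 7, and 16.5% were lower. Runx1t1, the mouse gene for the ETO part of the fusion, had 0 CPM in all libraries other than Rag2-/-γc-/- library 11, at 0.0253 CPM, and so does not check the transgene. Granulocyte marker genes were scarce, at 5.65 to 29.6 summed CPM in Rag2-/-γc-/- libraries and 4.4 to 29.7 summed CPM in C57BL/6J libraries. Genes that mark conventional type 1 dendritic cells were abundant, at 3830 to 5660 and 5930 to 7850 summed CPM.

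Several of the 10 encode proteins that restrain or read out growth signals. The kinase mTOR switches protein synthesis on and autophagy off when nutrients and growth factors are present. Together with its substrate kinases, mTOR releases cap-dependent translation from inhibitors. The tumour suppressor p53 induces genes of arrest, death and stress defence. Phospholipase C and adenylyl cyclase each turn a receptor signal into second messengers, inositol phosphates with diacylglycerol in the first case and cyclic AMP in the second.

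Upstream sequence was read for the genes that the RefSeq promoter table (GRCm38.p6) lists, which gave 9 windows of 250 bases before an annotated start for 7 of the 10 genes (Deptor, Adcy6 and Trp53inp1 had no entry). Each window was searched on both strands for a small set of motifs. The E-box CACGTG, bound by MYC, MAX and TFEB, lay upstream of Dhx40 and Dirc2, and 6.02% of all 32851 windows of the same length hold it. The RUNX motif TGTGGT, the motif that AML1 reads, lay upstream of Dhx40 and Pdcd4, and 14% of all windows hold it. In Sh3bp5 it lay only before the second listed start, which is inside the gene by the gene coordinates given below. Upstream of Pdcd4 lay 1 forkhead core, TGTTTNC, found in 17.8% of all windows. The CRE core TGACG lay upstream of the RefSeq start of Dhx40 and is in 17.8% of all windows. It lay 33 bases before that start. The gene coordinates given below run to 86807696, past the RefSeq start, so by them this match is inside the gene. The full cyclic AMP element TGACGTCA (1.55% of windows), the FOXO form TGTTTAC (3.17%) and the ETS motif CCGGAAGT (2.88%) were in none of the 9 windows. The PU.1 purine box GAGGAAGT lay upstream of Sh3bp5 and Dirc2 (2.44% of all windows). The GC box GGGCGG was in windows of 6 genes (32.7%) and CCAAT in windows of 5 (33.8%). In Pdcd4 the GC box and CCAAT lay only before the second listed start, which is inside the gene by the gene coordinates given below. The windows that hold an E-box, RUNX, forkhead or CRE core match are printed 5′ to 3′ on the gene's strand, ending at the base before the start, with those matches in capitals. In Dhx40 the capitals are, from left to right, the RUNX motif, the E-box and the CRE core. In Pdcd4 they are the RUNX motif and then the forkhead core.
Dhx40, chr11:86807661-86807910, minus strand: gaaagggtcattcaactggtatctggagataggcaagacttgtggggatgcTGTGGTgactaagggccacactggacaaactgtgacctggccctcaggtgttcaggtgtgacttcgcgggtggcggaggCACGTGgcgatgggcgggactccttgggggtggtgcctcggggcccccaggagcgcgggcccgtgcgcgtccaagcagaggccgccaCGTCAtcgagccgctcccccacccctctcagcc
Dirc2 (RefSeq Slc49a4), chr16:35769371-35769620, minus strand, E-box: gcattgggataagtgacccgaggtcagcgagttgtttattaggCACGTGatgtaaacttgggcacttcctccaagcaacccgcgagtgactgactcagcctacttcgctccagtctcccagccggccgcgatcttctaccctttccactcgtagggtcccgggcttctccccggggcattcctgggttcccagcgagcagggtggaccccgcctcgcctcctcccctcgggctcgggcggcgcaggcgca
Sh3bp5, second listed start, chr14:31417678-31417927, minus strand, RUNX motif: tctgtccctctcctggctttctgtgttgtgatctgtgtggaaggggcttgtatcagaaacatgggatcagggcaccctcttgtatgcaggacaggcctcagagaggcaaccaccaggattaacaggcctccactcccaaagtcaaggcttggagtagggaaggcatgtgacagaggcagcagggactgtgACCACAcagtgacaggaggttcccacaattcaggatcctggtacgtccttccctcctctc
Pdcd4, first listed start, chr19:53891981-53892230, plus strand: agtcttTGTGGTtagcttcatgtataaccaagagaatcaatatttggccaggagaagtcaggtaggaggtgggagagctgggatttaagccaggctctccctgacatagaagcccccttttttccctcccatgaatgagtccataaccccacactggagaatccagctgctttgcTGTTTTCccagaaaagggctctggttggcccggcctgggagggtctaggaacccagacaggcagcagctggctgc
The starts of the Dhx40 E-box and the Dirc2 E-box lay 120 and 207 bases before the annotated starts. A letter match describes the sequence only, and no binding was measured.

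Deptor, Pdcd4 and Trp53inp1 act on growth control and stress. Deptor (chr15:55112317-55259271, plus strand) encodes a protein that binds mTOR and inhibits both of its complexes. Its level was 21.2, 20.4 and 15.8 CPM in Rag2-/-γc-/- libraries 7, 8 and 9, 1.73 and 2.73 CPM in Rag2-/-γc-/- libraries 10 and 11, and 1.28, 1.83, 1.75, 2.22 and 0.78 CPM in C57BL/6J libraries 1, 3, 4, 5 and 6. The lowest of the 3 high libraries was 5.79 times the highest of the other 7, which was Rag2-/-γc-/- library 11. Pdcd4 (chr19:53892231-53929861, plus strand) encodes an inhibitor of the translation helicase eIF4A that is degraded after mTOR signalling. It had 51.9, 58.6 and 50.2 CPM in Rag2-/-γc-/- libraries 7, 8 and 9, 5 and 6.3 CPM in libraries 10 and 11, and 17.6, 12, 8.63, 6.94 and 7.04 CPM in the C57BL/6J libraries, in the same library order. Here the C57BL/6J libraries lay above Rag2-/-γc-/- libraries 10 and 11 without overlap, and C57BL/6J library 1 came closest to the 3 high ones. Trp53inp1 (chr4:11156431-11174379, plus strand) encodes a p53-induced stress protein that also binds ATG8 proteins of the autophagosome. Its CPM values were 104, 150 and 103 in Rag2-/-γc-/- libraries 7, 8 and 9, 6.11 and 6.68 in libraries 10 and 11, and 12.3, 13.3, 7.92, 6.68 and 9.41 in the C57BL/6J libraries. The gap between the 3 libraries and the rest was the widest of the 10 genes, with 7.79 times between the nearest libraries.

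**Figure D1:**
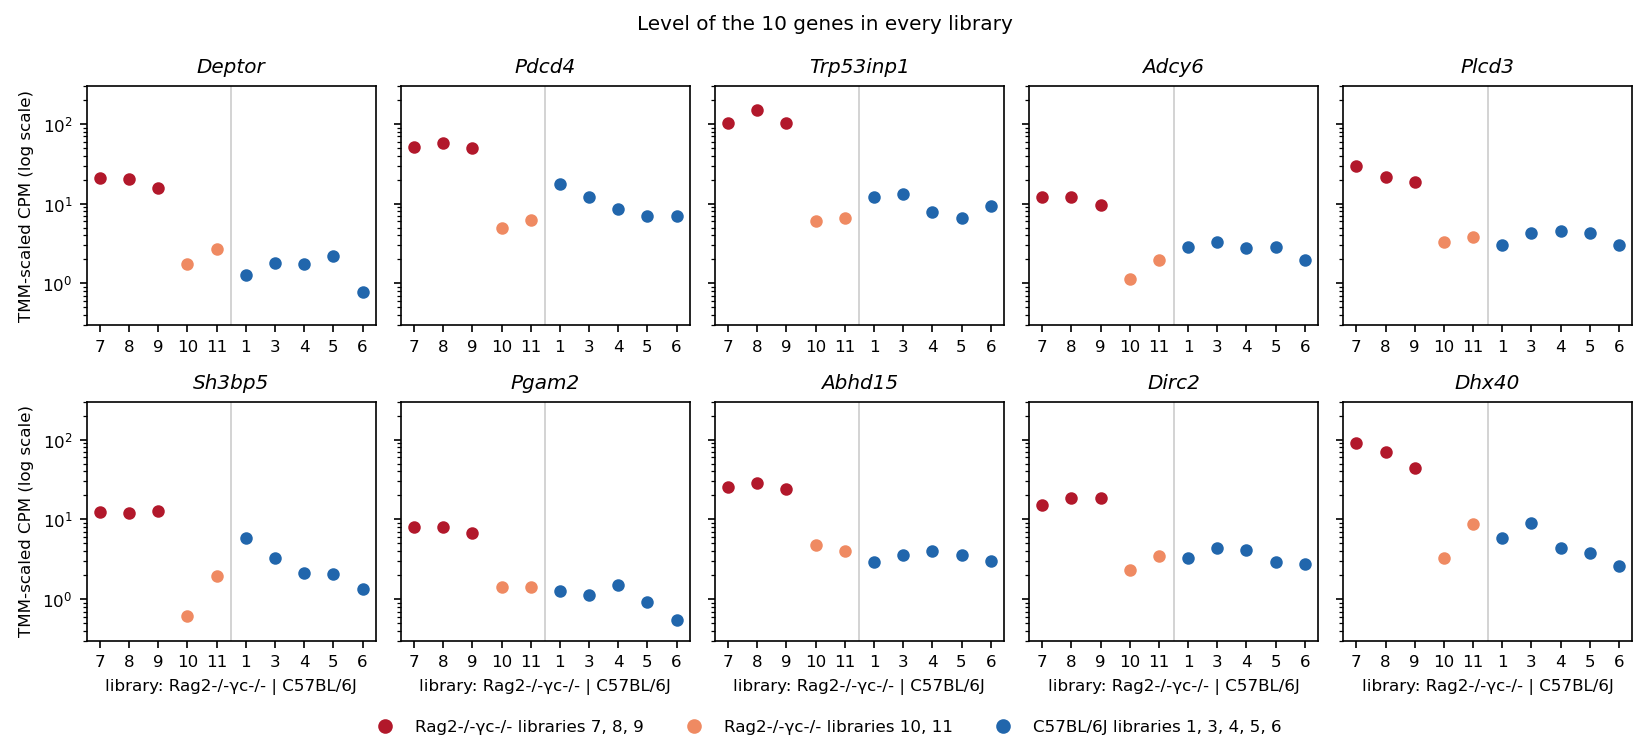
Level of each gene in every library, in TMM-scaled CPM on a log axis, with 1 point per library and no averaging. Rag2-/-γc-/- libraries 7, 8 and 9 lie above the other 7 points in all 10 panels, from 2.02 times in Sh3bp5 to 7.79 times in Trp53inp1 between the nearest points.

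Adcy6, Plcd3 and Sh3bp5 belong to signalling at membranes. Adcy6 (chr15:98589994-98607633, minus strand) encodes an adenylyl cyclase, which makes cyclic AMP. It was measured at 12.1, 12.1 and 9.55 CPM in Rag2-/-γc-/- libraries 7, 8 and 9, at 1.14 and 1.95 CPM in libraries 10 and 11, and at 2.84, 3.33, 2.79, 2.83 and 1.99 CPM in the C57BL/6J libraries. Libraries 10 and 11 were thus at the bottom of the order, below every C57BL/6J library. Plcd3 (chr11:103070304-103101658, minus strand) encodes a delta-class phospholipase C, which cleaves the membrane lipid PIP2. Its level was 30.1, 21.8 and 18.9 CPM in Rag2-/-γc-/- libraries 7, 8 and 9, 3.33 and 3.82 in libraries 10 and 11, and 3.05, 4.34, 4.59, 4.33 and 3.02 in the C57BL/6J libraries. Libraries 10 and 11 fell inside the C57BL/6J range. Sh3bp5 (chr14:31359880-31436078, minus strand) encodes a protein that binds and restrains BTK and activates the trafficking GTPase RAB11. It gave 12.5, 11.9 and 12.7 CPM in Rag2-/-γc-/- libraries 7, 8 and 9, the tightest trio of the 10 genes, 0.621 and 1.97 CPM in libraries 10 and 11, and 5.89, 3.31, 2.13, 2.05 and 1.33 CPM in the C57BL/6J libraries. The other 7 libraries were the most scattered of any of the 10 genes, with a highest-to-lowest ratio of 9.5, and C57BL/6J library 1 reached within 2.02 times of the lowest of the high trio.

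Pgam2, Abhd15, Dirc2 and Dhx40 serve metabolism, the lysosome and RNA. Pgam2 (chr11:5801640-5803733, minus strand) encodes the muscle form of the glycolytic enzyme phosphoglycerate mutase. Its level was 7.97, 8.12 and 6.73 CPM in Rag2-/-γc-/- libraries 7, 8 and 9, 1.44 and 1.42 CPM in libraries 10 and 11, and 1.25, 1.14, 1.5, 0.914 and 0.553 CPM in the C57BL/6J libraries. Abhd15 (chr11:77515121-77538607, plus strand) encodes an alpha/beta hydrolase-fold protein known from fat cells, where it takes part in the control of lipolysis by insulin. It stood at 25.3, 29 and 23.8 CPM in Rag2-/-γc-/- libraries 7, 8 and 9, at 4.8 and 4.05 CPM in libraries 10 and 11, and at 2.96, 3.63, 4.03, 3.59 and 3.04 CPM in the C57BL/6J libraries. Libraries 10 and 11 were the next highest after the high trio, just above C57BL/6J library 4. Dirc2, now named Slc49a4 (chr16:35694062-35769356, minus strand), encodes a transporter of the lysosomal membrane. In Rag2-/-γc-/- libraries 7, 8 and 9 it had 15, 18.4 and 18.7 CPM, against 2.32 and 3.49 CPM in libraries 10 and 11 and 3.33, 4.37, 4.11, 2.92 and 2.74 CPM in the C57BL/6J libraries. Its highest library was number 9, which was the lowest of the trio for 8 of the 10 genes. Dhx40 (chr11:86768846-86807696, minus strand) encodes a putative RNA helicase of the DEAH family. Values of 91.8, 69.9 and 44.7 CPM in Rag2-/-γc-/- libraries 7, 8 and 9 stood against 3.33 and 8.83 CPM in libraries 10 and 11 and 5.77, 9.08, 4.39, 3.76 and 2.57 CPM in the C57BL/6J libraries. This was the gene with the widest spread inside the trio, 2.06-fold between libraries 7 and 9.

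Averages over whole groups had a wide spread among the Rag2-/-γc-/- recipients. Trp53inp1 averaged 74.1 ± 64.6 CPM in Rag2-/-γc-/- recipients and 9.92 ± 2.82 CPM in C57BL/6J recipients (SD, n = 5 each). Pdcd4 averaged 34.4 ± 26.4 and 10.5 ± 4.5 CPM, and Pgam2 averaged 5.13 ± 3.43 and 1.07 ± 0.357 CPM, over the same groups. The log2 fold changes of Rag2-/-γc-/- over C57BL/6J recipients ran from 1.42 ± 0.56 (SE) in Adcy6 to 3.10 ± 0.76 in Dhx40, with a median of 2.14. With edgeR's quasi-likelihood test and an adjusted p under 0.05, 6 of the 10 were called higher (Abhd15, Deptor, Pgam2, Dhx40, Plcd3 and Trp53inp1), where 4.47% of all tested genes were. The genes were chosen on libraries 7, 8 and 9 against all others, and those 3 enter this contrast, so nothing is read from that count. limma-voom called 0 of the 10, with 5 at an unadjusted p under 0.05, and 4.05% of all tested genes higher. DESeq2 called 7, and 8.27% of all tested genes higher. The edgeR count was 2 without any 1 of libraries 7, 8 and 9, 10 without library 10, 10 without both 10 and 11 (17.4% of all tested genes were then called higher), 3 with C57BL/6J library 1, 3 or 4 left out, 2 with C57BL/6J library 5 left out and 0 with number 6 left out. In the last of these, 8 of the 10 had an unadjusted edgeR p under 0.05. With all 10 libraries, 14.1% of all tested genes were higher at that p. edgeR called 624 genes higher with all libraries, 383, 317 and 310 without library 7, 8 and 9, and 1323 without library 10. It called 630, 415 and 443 without C57BL/6J library 1, 3 and 4. The 10 genes were chosen on these values, so nothing is read from their counts.

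With libraries 7, 8 and 9 set aside, Rag2-/-γc-/- libraries 10 and 11 were higher than C57BL/6J libraries for 4 of them and lower for 6. The log2 difference was 0.50 ± 0.39 (SE) in Deptor, 0.41 ± 0.38 in Pgam2, 0.35 ± 0.20 in Abhd15 and 0.25 ± 0.49 in Dhx40. It was -0.12 ± 0.235 in Plcd3, -0.27 ± 0.27 in Dirc2, -0.64 ± 0.28 in Trp53inp1, -0.83 ± 0.30 in Adcy6, -0.89 ± 0.38 in Pdcd4 and -1.17 ± 0.65 in Sh3bp5. None was called by edgeR, with a lowest adjusted p of 0.266, although 3 had an unadjusted p under 0.05. Over all 14601 genes tested without the 3 libraries, edgeR called 1.88% in either direction at an adjusted p under 0.05, and 13.2% had an unadjusted p under 0.05. By means, libraries 10 and 11 stood between 0.441 times (Sh3bp5) and 1.42 times (Deptor) the C57BL/6J level, while the high trio stood between 5.33 times (Pgam2) and 18.6 times (Trp53inp1) the level of libraries 10 and 11.

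Abundance per kilobase of exon allows the levels of the 10 genes to be set side by side. Mean CPM per kilobase over libraries 7, 8 and 9 was 18.4 for Trp53inp1, 17.1 for Pdcd4 and 16.3 for Dhx40, against 1.38, 2.9 and 1.27 over the other 7. At the low end it was 1.66 for Adcy6 and 2.16 for Deptor, against 0.355 and 0.198. The others lay between 3.22 (Dirc2) and 9.05 (Pgam2) in the trio. Expected counts behind these values were 186 to 6339 in the trio and 19.1 to 577.4 in the other 7 libraries.

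Pearson's r between pairs on the log2 CPM scale, over all 10 libraries, was 0.778 to 0.977 with a median of 0.948 over 45 pairs. These values rest on 2 separate clusters of libraries and on shared sequencing libraries, and describe only that split. Within the other 7 libraries r was -0.69 to 0.925 with a median of 0.383, and 11 of the 45 pairs were negative. Sh3bp5 and Pdcd4 went together most closely there (0.925), both with their highest low-group value in C57BL/6J library 1. In the same libraries Abhd15 and Trp53inp1 went most strongly in opposite directions (-0.69). Rag2-/-γc-/- library 10 was the lowest of the 7 for 5 genes, and C57BL/6J library 6 for 4. Summed over the 10 genes, the level was 372, 400.1 and 304.5 CPM in libraries 7, 8 and 9, 29.83 and 41.23 CPM in libraries 10 and 11, and 56.35, 56.31, 41.84, 36.22 and 32.48 CPM in the C57BL/6J libraries.

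Among all tested genes, 99 (0.709%) were higher in each of libraries 7, 8 and 9 than in any of the other 7 by more than 2-fold on the log2 CPM scale with a prior count of 2, and all 10 genes were among them because the choice was made on this pattern. A gap of more than 4-fold was found in 13 genes (0.0931%), of which 6 were Trp53inp1, Deptor, Abhd15, Dhx40, Pgam2 and Plcd3. The other 7 were named after their values were seen. They were Klf9, which encodes a zinc-finger repressor induced by glucocorticoids, Hunk, a kinase, Sele, the adhesion molecule E-selectin, Mrap, a melanocortin receptor partner, Hdc, the enzyme that makes histamine, Tmod1, an actin-capping protein, and Il20rb, a cytokine receptor chain. Klf9 had the widest gap of all, with 5.25 to 11.4 CPM in libraries 7, 8 and 9, 0.196 to 0.531 CPM in libraries 10 and 11 and 0.152 to 0.42 CPM in C57BL/6J libraries. Hunk had 17.4 to 23.8 CPM in the trio, 1.73 to 2.58 CPM in libraries 10 and 11 and 0.355 to 2.44 CPM in C57BL/6J libraries. Sh3bp5 was the closest of the 10 to the 2-fold line and ranked 98 among all genes by its gap.

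The 10 other genes whose profile was most like the average profile of the set, among genes averaging at least 5 CPM, were Klf13, Ddx19b, Klhl6, Irf2, Rassf5, Usp25, Ypel5, Ccdc32, Usp3 and Pon2. Their r over the 10 libraries was 0.981 to 0.997, and 158 tested genes outside the set passed 0.95, so likeness by r alone singles out many genes. Their gaps between the nearest libraries were 1.22-fold to 2.69-fold, against 2.02-fold to 7.79-fold in the set. Klf13, a zinc-finger factor with the highest r, had 279 to 309 CPM in libraries 7, 8 and 9, 71.5 to 82.9 CPM in libraries 10 and 11 and 75.3 to 104 CPM in C57BL/6J libraries. The narrowest gap was in Usp25, a deubiquitinase, and the widest in Klf13, followed by Ccdc32 at 2.58-fold.

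**Figure D2:**
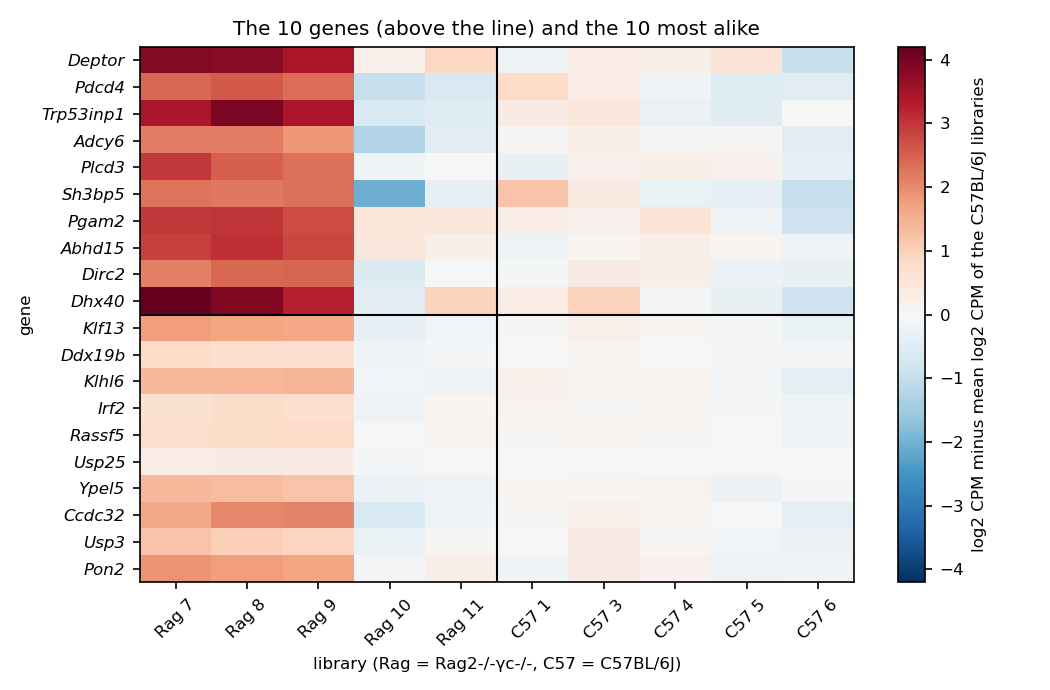
Log2 CPM in each library (columns) minus the mean log2 CPM of the 5 C57BL/6J libraries, for the 10 genes above the line and the 10 genes most like them below it; red is higher and blue lower. The first 3 columns are red in every row, and paler in Usp25, whose gap was 1.22-fold, than in Trp53inp1, whose gap was 7.79-fold.

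For each of the 10 genes, partners in its pathway were followed from lists chosen by role. The median log2 fold changes of the 12 lists ran from -0.25 (phospholipase C isoforms) to 0.22 (FOXO targets), against -0.00375 over all tested genes, of which edgeR called 4.47% higher and 3.32% lower. At an unadjusted edgeR p under 0.05, 14.1% of all tested genes were higher and 11.5% lower, 25.7% in all, and DESeq2 called 8.27% higher and 5.75% lower. Of the 33 tested regulators of mTOR, the pathway of Deptor, edgeR called 1 higher and 2 lower. Rragd, a RAG GTPase that brings mTOR to the lysosome, rose to 2.49 ± 1.09 CPM in Rag2-/-γc-/- recipients against 0.351 ± 0.0961 CPM in C57BL/6J recipients (SD, n = 5 each). Its log2 fold change was 2.82 ± 0.37 (SE), with an edgeR adjusted p of 0.00102. Single libraries gave 2.93 to 3.64 CPM in libraries 7, 8 and 9 and 1.21 to 1.44 CPM in libraries 10 and 11, so it was high in all 5 Rag2-/-γc-/- libraries. Prr5l, a partner of the second mTOR complex, fell to 3.28 ± 0.758 CPM against 11.2 ± 3.42 CPM in C57BL/6J recipients (log2 fold change -1.77, edgeR adjusted p 0.00109). Rhebl1, a relative of the mTOR activator Rheb, also fell, with a log2 fold change of -0.69 and an edgeR adjusted p of 0.0445. That call was lost without any 1 of Rag2-/-γc-/- libraries 7, 8, 9 or 11 or of C57BL/6J libraries 4, 5 or 6, with an edgeR adjusted p of up to 0.112. It was also lost with no filter on low counts (edgeR adjusted p 0.0688).

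Of the 20 tested eIF4 initiation factors and their partners, the machinery on which Pdcd4 acts, edgeR and DESeq2 called 0, and 2 had an unadjusted edgeR p under 0.05, both lower. Eif4e, the cap-binding subunit, had 104 ± 15.2 CPM in Rag2-/-γc-/- recipients and 131 ± 14.3 CPM in C57BL/6J recipients, with an edgeR adjusted p of 0.0977. Among 21 tested p53 targets, the class to which Trp53inp1 belongs, 1 rose and 1 fell. Bbc3, the death inducer PUMA, rose to 18.1 ± 1.51 CPM against 12.7 ± 1.57 CPM in C57BL/6J recipients (adjusted p 0.0183 by edgeR, and 0.0502 without C57BL/6J library 6). Ccng1, cyclin G1, fell to 146 ± 26.3 CPM against 214 ± 32.1 CPM, with an edgeR adjusted p of 0.0361. Its call was lost without any 1 of libraries 7, 8 or 9 or of C57BL/6J libraries 1, 3 or 6, with an edgeR adjusted p of up to 0.0957.

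Among 28 tested genes of ATG8-linked autophagy, Sqstm1, the cargo receptor p62, rose and Optn, another receptor, fell. Sqstm1 averaged 323 ± 61 CPM in Rag2-/-γc-/- and 216 ± 36.9 CPM in C57BL/6J recipients (adjusted p 0.0371 by edgeR), and lost its call without any 1 of libraries 7, 8 or 9 or of C57BL/6J libraries 3, 4, 5 or 6 (edgeR adjusted p up to 0.0952). Optn averaged 1.18 ± 0.4 and 2.56 ± 0.265 CPM (adjusted p 0.0173 by edgeR). Of 22 tested FOXO targets, a class in which Pdcd4 has been placed, Bnip3, a mitophagy receptor, fell with a log2 fold change of -0.68 and an edgeR adjusted p of 0.00481. None rose by edgeR. At an unadjusted edgeR p under 0.05, 8 were higher and 3 lower, and DESeq2 called 3 higher and 3 lower.

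Libraries 7, 8 and 9 were above all other 7 in 5 of 33 mTOR regulators, 4 of 20 initiation genes, 2 of 21 p53 targets, 6 of 28 autophagy genes and 8 of 22 FOXO targets, where 16.5% of all tested genes were. They were below all other 7 in 4, 5, 6, 3 and 1 genes of those lists, again against 16.5%. In the other 7 lists they were above in 3 of 13 adenylyl cyclase and protein kinase A genes and 0 of 7 phospholipase C genes. They were also above in 1 of 12 glycolytic genes, 6 of 15 DEAH helicases and 5 of 17 ABHD hydrolases. The same held for 4 of 17 transporter entries and 4 of 13 genes around SH3BP5. Libraries 7, 8 and 9 were below all other 7 in 2, 3, 1, 3, 1, 1 and 1 genes of these lists, in the same order. The gap was over 2-fold in 2 genes of the 12 lists, where 0.709% of all tested genes had such a gap. They were Ddit4, 1 of the 33 mTOR regulators, and Pik3ip1, 1 of the 22 FOXO targets, both named after their values were seen. Ddit4, which inhibits mTOR complex 1 under stress, had 366 to 447 CPM in libraries 7, 8 and 9, 25.3 to 139 CPM in libraries 10 and 11 and 36.8 to 157 CPM in C57BL/6J libraries (edgeR adjusted p 0.197). Pik3ip1, an inhibitor of PI3 kinase, had 74.4 to 92.7 CPM in the trio, 1.96 to 11.5 CPM in libraries 10 and 11 and 11.2 to 33.7 CPM in C57BL/6J libraries (edgeR adjusted p 0.267).

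Signalling and metabolic partners gave a mixed account. Of 13 tested adenylyl cyclase and protein kinase A genes, edgeR called 0, with 5 at an unadjusted p under 0.05, while DESeq2 called 2 higher and 2 lower. Prkar2b, a regulatory subunit of protein kinase A, had the smallest p of that list, at 52.6 ± 8.38 CPM in Rag2-/-γc-/- and 66.8 ± 4.6 CPM in C57BL/6J recipients (adjusted p 0.0805 by edgeR). Of 7 tested phospholipase C genes, 2 rose and 2 fell. Plcl2, a catalytically inactive relative, rose to 46.9 ± 3.06 CPM against 34.2 ± 2.43 CPM in C57BL/6J recipients (adjusted p 0.00858 by edgeR). Plcg1 fell to 13.3 ± 1.43 CPM against 21.5 ± 3.94 CPM, and Plcb4 fell to 4.48 ± 2.04 CPM against 14.2 ± 4.23 CPM (adjusted p 0.012 and 0.0161 by edgeR). Of 13 tested genes around SH3BP5, BTK and RAB11, Rab11a fell to 89.5 ± 4.51 CPM against 119 ± 14.7 CPM, with an edgeR adjusted p of 0.0216. It lost the call without Rag2-/-γc-/- library 7 or 9 or without C57BL/6J library 6 (edgeR adjusted p up to 0.064).

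Of 12 tested genes of lower glycolysis, 2 fell and 0 rose by edgeR, where 5 had an unadjusted p under 0.05, all lower, and DESeq2 called 3, all lower. Aldoc, an aldolase, fell to 28.7 ± 2.73 CPM against 52.4 ± 9.66 CPM in C57BL/6J recipients, and Pgk1 fell to 726 ± 39 CPM against 962 ± 99 CPM (adjusted p 0.00248 and 0.0173 by edgeR). Of 17 tested list entries for lysosomal and SLC49 transporters, 2 rose and 0 fell by edgeR and by DESeq2. Of these entries 0 were lower at an unadjusted edgeR p under 0.05. Flvcr1 was also entered as Mfsd7b, the same gene, so the entries outnumber the genes. Slc29a3, a lysosomal nucleoside carrier, rose to 44.1 ± 4.04 CPM against 26.1 ± 4.61 CPM, and Slc36a1, a lysosomal amino acid carrier, rose to 4.98 ± 1.62 CPM against 2.23 ± 0.441 CPM (adjusted p 0.00519 and 0.017 by edgeR). Of 15 DEAH helicases edgeR called 0 and DESeq2 called 3 higher and 1 lower, with 4 at an unadjusted edgeR p under 0.05. Dhx58, a sensor of viral RNA and the gene of smallest p there, was at 43.2 ± 11.6 CPM in Rag2-/-γc-/- and 28.2 ± 4.25 CPM in C57BL/6J recipients (adjusted p 0.0675 by edgeR). Of 17 ABHD hydrolases edgeR called 0 and DESeq2 called 2 higher, again with 4 at that p. Abhd12, a lysophospholipid hydrolase, had the smallest p among these, at 119 ± 30.8 CPM in Rag2-/-γc-/- and 80.1 ± 5.77 CPM in C57BL/6J recipients (adjusted p 0.0563 by edgeR). Over all 12 lists, edgeR called 17 genes, where 7.79% of all tested genes were called in either direction. Without libraries 7, 8 and 9 it called 3, namely Rragd, Prr5l and Plcb4, where 1.88% of all tested genes were called. The count was 45 without Rag2-/-γc-/- library 10, 29 without library 11 and 11 when C57BL/6J library 6 was left out. The calls over all tested genes moved too, from 624 higher and 464 lower to 1323 and 1076 without library 10, and to 849 and 613 without library 11. Nothing about the lists is read from these counts.

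Near relatives were followed for 5 of the 10 genes. Pgam1, the widespread mutase that performs the same step as Pgam2, was at 658, 589 and 617 CPM in libraries 7, 8 and 9, 550 and 494 CPM in libraries 10 and 11 and 574 to 791 CPM in C57BL/6J libraries. Trp53inp2 was at 3.31, 2.98 and 3.69 CPM in the trio, inside the 1.4 to 3.76 CPM range of the other 7. Sh3bp5l was at 17.2, 19.7 and 19.7 CPM in the trio, 25.8 and 25.9 CPM in libraries 10 and 11 and 18.9 to 24.1 CPM in C57BL/6J libraries. Plcd1 and Adcy5 were nearly silent, with at most 0.181 and 0.203 CPM in any library.

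The tested neighbours compared with the 10 on their chromosomes did not show gaps of the same size. Chromosome 11 holds 4 of them (Pgam2, Abhd15, Dhx40 and Plcd3) and 8.69% of all tested genes. The median tested gene on chromosome 11 differed from the C57BL/6J mean by no more than 0.0435 on the log2 scale in any Rag2-/-γc-/- library. The nearest tested gene on each side was taken by start position, 20 in all. The tested lincRNA AL731670.1, which overlaps Plcd3 on the opposite strand, was not among them. For the 20, the ratio of the mean of libraries 7, 8 and 9 to the mean of the other 7 had a median of 1.13. It lay between 0.382 (Ccne2, beside Trp53inp1) and 2.24 (Trp53i13, beside Abhd15). For the 10 genes that ratio was 4.67 (Adcy6) to 13.4 (Trp53inp1). Abhd15 shares exon bases with genes on the opposite strand, 29.1% with Gm10392, 10.8% with Trp53i13 and 3.1% with Taok1, and whether the counting used strand is not given in the sources used here. Trp53i13 was at 10.8 to 12.6 CPM in the trio, 4.63 to 6.04 CPM in libraries 10 and 11 and 4.34 to 5.92 CPM in C57BL/6J libraries, so reads of the 2 genes cannot be fully told apart. Smaller overlaps touch Adcy6 (8.92% of exon bases), Sh3bp5 (3.63%) and Deptor (3.41%).

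**Figure D3:**
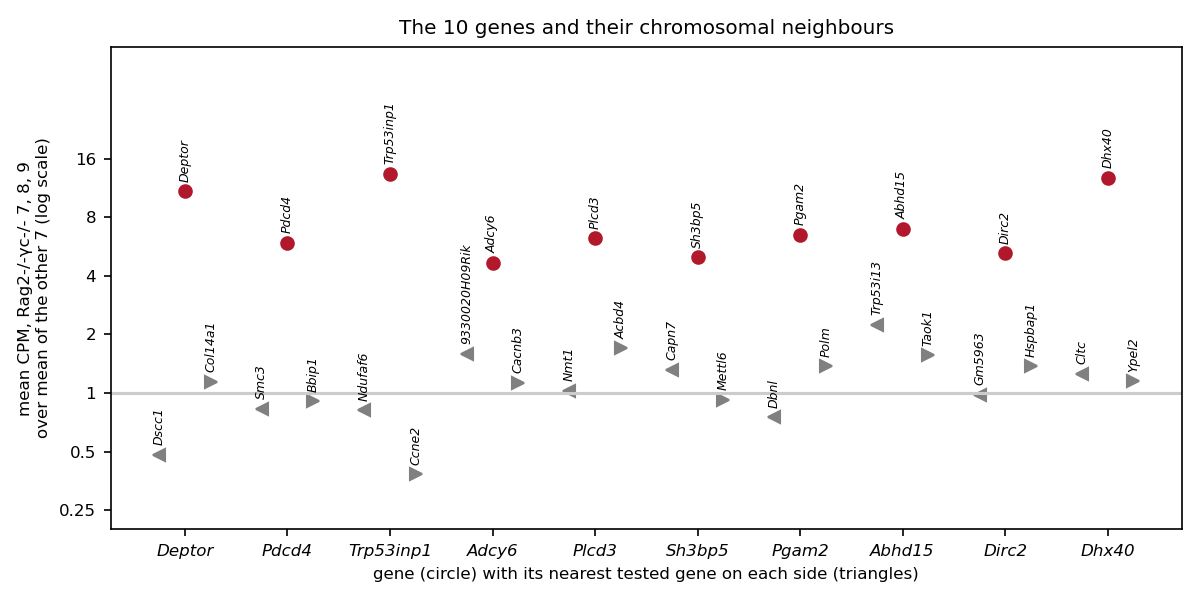
Mean CPM in Rag2-/-γc-/- libraries 7, 8 and 9 over the mean of the other 7 libraries, on a log axis, for each of the 10 genes (circles) and its nearest tested gene at lower and higher coordinates (triangles). All 10 circles lie at 4.67 or above, and the triangles lie between 0.382 and 2.24. The tested lincRNA AL731670.1, which overlaps Plcd3, is not among the triangles.

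Marker lists showed what else separated the 3 libraries. Cell cycle genes were lower there, at 1350 to 2140 summed CPM in libraries 7, 8 and 9, 2720 to 3480 in libraries 10 and 11 and 2380 to 3190 in C57BL/6J libraries, and 15 of 20 were below all other libraries. Genes of conventional type 1 dendritic cells were lower as well, at 3830 to 4690, 5550 to 5660 and 5930 to 7850 summed CPM, with 5 of 10 below all other libraries. The red pulp macrophage sum was higher, at 1010 to 1350, 840 to 906 and 299 to 805 CPM, with Hmox1 giving most of it in libraries 7, 8 and 9. Hmox1, Vcam1, Cd163 and Mrc1, 4 of the 12, were above all other libraries, and 0 were below them all. The list did not rise as a whole. C1qa was at 43.5 CPM in library 7 against 57.2 in C57BL/6J library 4. Slc40a1 was at 42.6, 77.7 and 55 CPM in libraries 7, 8 and 9, against 106 and 94.8 CPM in libraries 10 and 11. The stem and progenitor sum was at 391 to 505, 229 to 252 and 124 to 198 CPM, mostly Cd34, and Mecom was at 0 throughout. Of the 5 tested genes of that list, 1 was above all other libraries, Cd34, and 1 was below them all, Procr. Procr was at 11 to 12.9 CPM in libraries 7, 8 and 9 and 15.3 to 25.1 CPM in the other 7, so the sum stands for Cd34 only. Plasmacytoid dendritic cell genes were at 226 to 236, 167 to 176 and 131 to 189 summed CPM, with Siglech at no more than 0.397 CPM. Of the 4 tested genes of that list, 2 were above all other libraries, Pacsin1 and Tcf4, and 0 were below them all. Bst2 was at 38.3, 41.1 and 45.7 CPM in libraries 7, 8 and 9, against 48.6 and 45.7 CPM in libraries 10 and 11. So this list did not rise as a whole either. The part of these marker lists in the levels of the 10 genes was not tested.

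**Figure D4:**
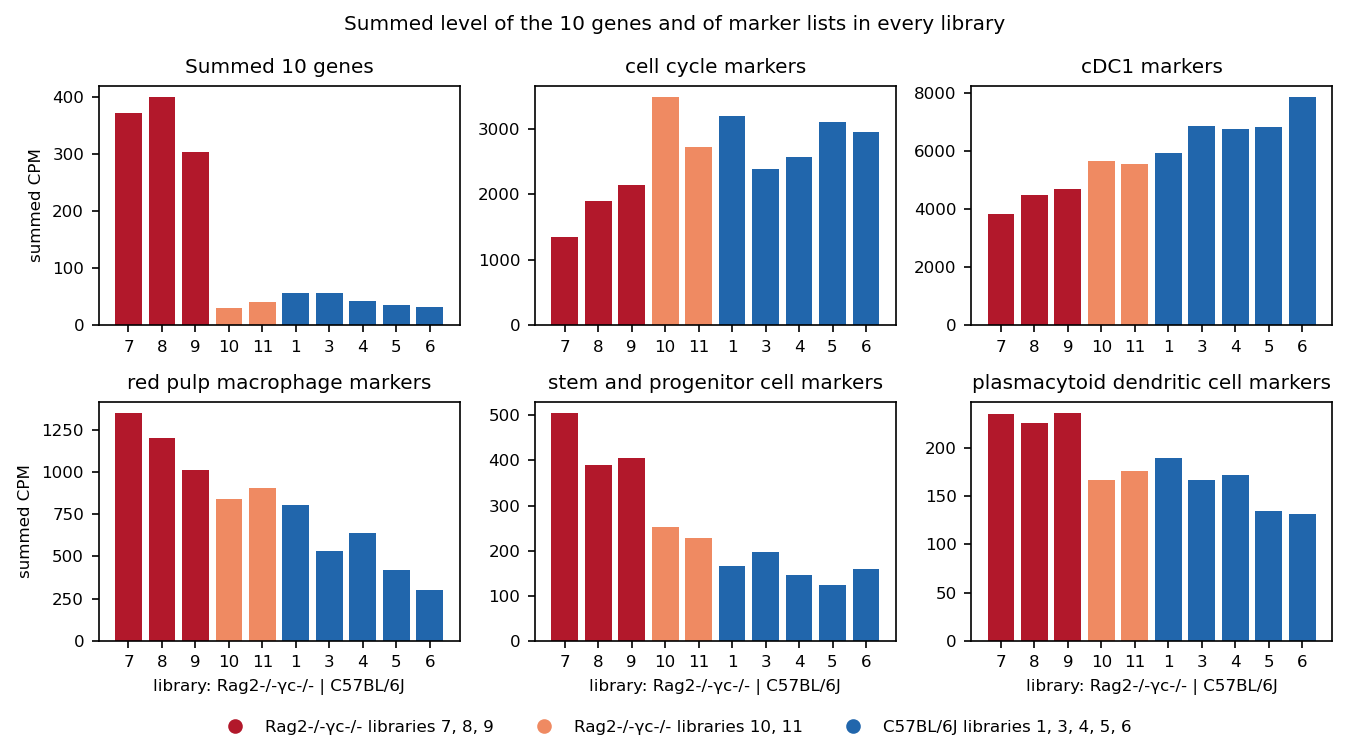
Summed CPM of the 10 genes and of 5 marker lists, with 1 bar per library and every axis starting at 0. The sum of the 10 genes is 304.5 to 400.1 CPM in libraries 7, 8 and 9 and 29.83 to 56.35 CPM in the other 7, and cell cycle genes are lowest in the same 3 libraries.

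The remaining marker lists did not separate libraries 7, 8 and 9 from the rest. T cell genes were at 3.4 to 5.85 summed CPM in Rag2-/-γc-/- libraries and 2.46 to 50.8 in C57BL/6J libraries, and B cell genes at 1.56 to 2.12 and 2.07 to 160, with the highest value of both in C57BL/6J library 1. NK cell genes were at 0.817 to 4.37 and 1.81 to 8.83 summed CPM, monocyte genes at 63.2 to 115 and 23.2 to 63.5, and erythroid genes at 74.8 to 243 and 14.9 to 146, in the same order of groups. Megakaryocyte and platelet genes were at 4.21 to 21.2 summed CPM in Rag2-/-γc-/- libraries and 12.3 to 20 in C57BL/6J libraries, and libraries 10 and 11 were the lowest. Endothelial and stromal genes stayed at or below 2.18 summed CPM in every library, with Dcn and Lum at 0. Pdcd4 and Sh3bp5 were highest among the low libraries in C57BL/6J library 1, the library with the most T and B cell transcripts, and the part of those cells in the 2 values was not tested.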

How the data were processed

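The deposited table held expected counts per gene and library, which the authors made on mouse build GRCm38; the submitters' processing notes name cutadapt 1.11, STAR 2.5.2a, RSEM 1.2.30 and edgeR, and the sources used here do not give whether strand was used in counting. Expected counts apportion ambiguous reads, so levels of genes with near copies can be split between them. They were rounded to whole numbers, filtered with edgeR's filterByExpr (minimum count 10, minimum total 15) and scaled by TMM factors; CPM are counts divided by that scaled library size.

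Groups were compared with edgeR 4.0.16 (quasi-likelihood test, Benjamini-Hochberg adjustment, threshold 0.05) in R 4.3.3, over the 5 Rag2-/-γc-/- and 5 C57BL/6J libraries with no covariate, and every fold change is Rag2-/-γc-/- over C57BL/6J. Log2 CPM for profiles used a prior count of 2. The procedure was tested on simulated data. DESeq2 1.42.0, limma 3.58.1 (voom), other scalings and filters, and leaving out libraries were tried as alternatives. Lowest-to-highest ratios are of CPM.

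The 10 genes, the gene lists and the rules were chosen with earlier results of these data known. Besides the 10, the genes named are the nearest tested neighbours, 5 paralogs, the 10 genes most like the set, and in each list up to 3 called genes, taken from the lowest adjusted p upward, or, in a list with no call, the 1 of lowest p; others are said to be named after their values were seen. Of 383 list entries, 382 matched the table. Gene coordinates came from the deposited table, and exon lengths and shared exon bases from a GENCODE annotation of GRCm38.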

Additional observations from a re-analysis of the deposited data

How the results depend on the processing

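All 10 genes were higher in each of libraries 7, 8 and 9 than in any of the other 7 under every scaling, prior count and filter tried. The number of tested genes with that order was 2307, and 1921 (9 of the 10 above 2-fold) with total counts alone. It was 2365 to 2777 when 1 library was left out, a range added after the data were seen. edgeR called 624 genes higher, 464 lower, 6 of the 10 and 17 list genes. DESeq2 called 1155, 803, 7 and 39. limma-voom called 566, 482, 0 and 20, with 5 of the 10 at an unadjusted p under 0.05. Without libraries 10 and 11, edgeR called 2518, 2786, 10 and 81. Without libraries 7, 8 and 9 it called 127, 148, 0 and 3. Leaving out 1 library gave 304 to 1323 higher, 275 to 1076 lower, 0 to 10 of the 10 and 11 to 45 list genes. Without libraries 7, 8 and 9 the log2 difference turned to -0.12 in Plcd3, -1.17 in Sh3bp5, -0.27 in Dirc2, -0.83 in Adcy6, -0.89 in Pdcd4 and -0.64 in Trp53inp1, where the remaining Rag2-/-γc-/- libraries were 10 and 11 alone. The cause of the other shifts was not tested. With 5 libraries a group, low counts (down to 19.1 expected counts among the 10 genes) limit precision. No paired analysis was run, because the sources used here do not say which recipients of the 2 groups, if any, share a primary leukaemia.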

Other observations

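The opposite pattern was also present: 71 tested genes (0.508%) were lower in each of Rag2-/-γc-/- libraries 7, 8 and 9 than in any of the other 7 by more than 2-fold. Named after their values were seen, Rmi2, a partner of the BLM helicase in DNA repair, had 1.19 to 2.61 CPM in libraries 7, 8 and 9, 10.3 to 15.7 CPM in libraries 10 and 11 and at least 7.95 CPM in every C57BL/6J library. Gls2, a mitochondrial glutaminase induced by p53, had 0.017 to 0.145 CPM in libraries 7, 8 and 9, 0.658 to 1.01 CPM in libraries 10 and 11 and at least 0.642 CPM in every C57BL/6J library, so it lay on the other side from Trp53inp1.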
